A study of Mus musculus with 12 samples.

Results

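The interferon response genes are a set of 37 mouse genes that interferons switch on, named for this report by symbol and read from arrays of mouse embryonic fibroblasts. The set was chosen with earlier results of these data known, so its shares beside those of all genes are descriptive. All probes whose annotated accession matched a member in RefSeq were taken. Of the 37 genes, 36 had a probe and entered the comparisons, out of 19507 genes or transcripts tested. The remaining member, Mx2, matched no probe by accession and is not analysed here. The 36 genes were represented by 46 probes, of which 42 passed the filter on dim probes, and the brightest kept probe stood for each gene. By that probe, 34 members were well above background on all 12 arrays. Irf7 was so on 11 of 12, and Rsad2 on 4 of the 6 early and 5 of the 6 late arrays.

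The fibroblasts were primary cells from E12.5 embryos, either wild type (WT) or knock-out (KO) for Itpr2, the gene of an inositol trisphosphate receptor that releases calcium from internal stores. Each genotype was cultured for 3 passages (early) or 5 passages (late), and each of the 4 groups holds 3 arrays hybridised with Cy3-labelled cRNA made from 100 ng of total RNA. The design text states 3 independent animals per genotype, and the labels name no agent, interferon included, added to any group. No strain, deleted exon or promoter-driven Cre is named in the labels.

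Interferons are secreted proteins that cells release on sensing viral nucleic acid. Type I interferons bind the receptor pair Ifnar1 and Ifnar2, the kinases Jak1 and Tyk2 pass the signal on, and Stat2 acts with Irf9 in a complex that binds the interferon-stimulated response element (ISRE) in target promoters, while interferon gamma acts through the gamma-activated site (GAS). Fibroblasts keep a low level of many of these genes without added interferon and can both make and answer type I interferon.

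Between 59.2% and 67.5% of 39429 probes were well above background per array, and replicates of a group correlated at 0.985 to 0.997. The mean log2 signal of the Itpr2 probe was 0.95 and 1.35 on the early WT and KO arrays and 1.61 and 1.76 on the late ones; where it lies relative to the deletion is not known here, so it does not check the genotype. All 10 fibroblast markers and all 19 macrophage markers were measured. The other lists had 3 of 4 for plasmacytoid dendritic cells, 2 of 6 for T and NK cells, 2 of 6 for endothelium and 1 of 5 for epithelium. The inactive X transcript Xist was above background on 4 arrays, namely replicate 1 of WT early, replicate 1 of WT late and replicates 1 and 2 of KO late. Replicates with the same number lay on the same slide in all 4 groups, per the file headers. All values here are log2 signals relative to the 75th percentile of their array, so they compare arrays for 1 gene and not genes with each other. Each difference carries its SE, the standard error from limma. A gene is said to have risen or fallen where its limma p, adjusted over all 19507 genes by the Benjamini-Hochberg method, was under 0.05. Counts at an unadjusted limma p under 0.05 are given too. The share of all genes at that cut was not computed, so these counts have no background beside them.

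Arrays of the same group differed from each other for many members at once. The median deviation of the 36 members from their own means was lowest on WT late replicate 1, at -0.40, and highest on KO late replicate 2, at 0.37, where 34 of 36 lay above their mean. Within WT late, replicate 1 was the lowest array for 28 of 36 members, against 31% of all genes. Within KO late, replicate 2 was the highest array for 30 members, against 41% of all genes, and replicate 3 was the lowest for 30, against 37.8%. The early groups were split as well. WT early replicate 2 was highest of its group for 26 members, against 33.9% of all genes. KO early replicate 3 was so for 31, against 44.9%. The residual SD of the model had a median of 0.33 over the members and 0.19 over all genes, and 33 of 36 members were above the latter.

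**Figure D1:**
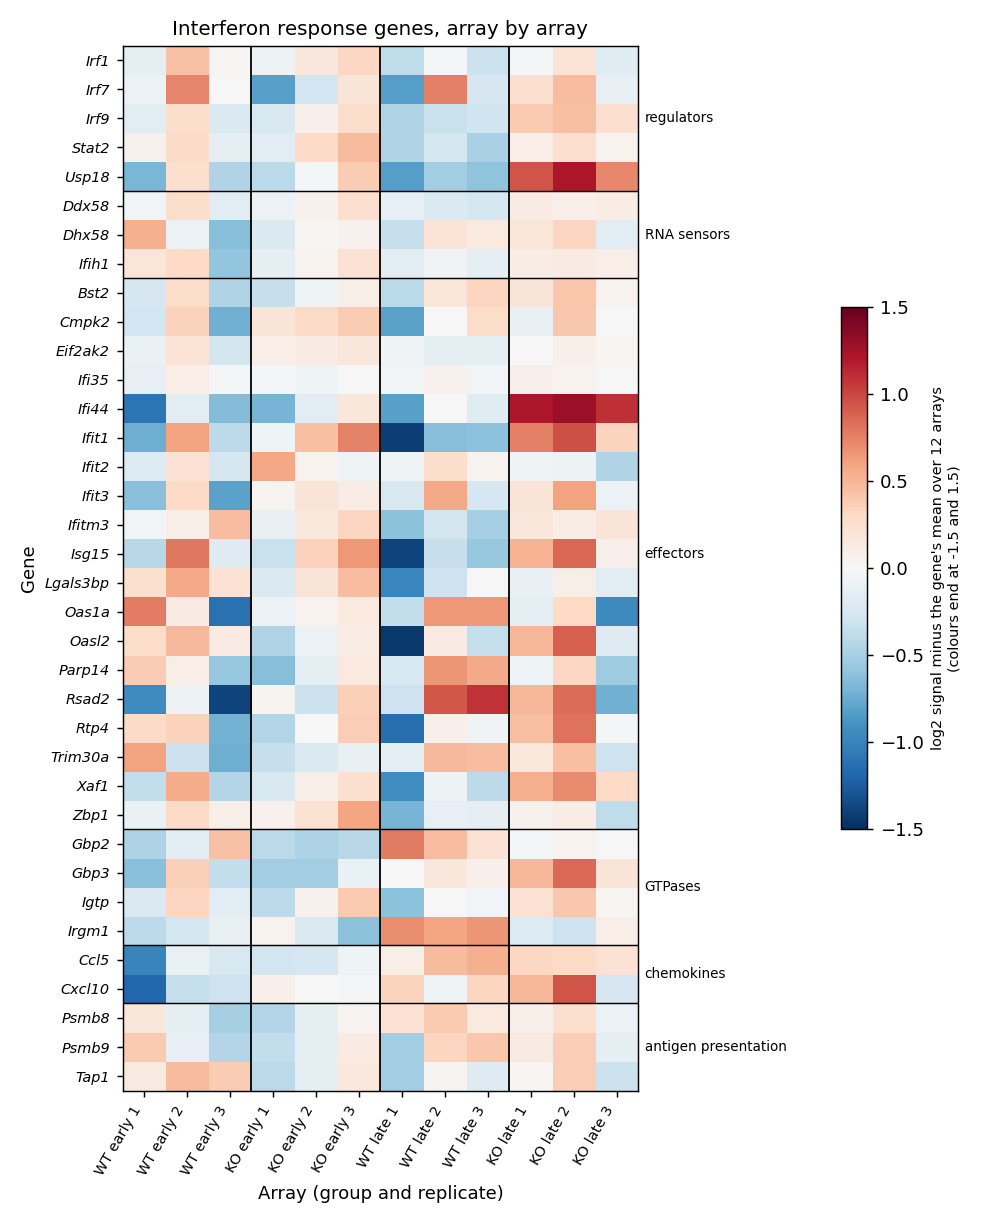
Log2 signal of each member (rows, ordered by role) on each array (columns, by group and replicate), minus the mean of that gene over 12 arrays. Red is above and blue below the mean. Ifi44 and Usp18 are red on all 3 KO late arrays, and WT late replicate 1 is blue for most effectors.

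By group means, 18 of 36 members were highest in KO late, against 26.3% of all genes, and 17 were lowest in WT late, against 24.7%. Only 2 members were lowest in KO late, where 33.4% of all genes were lowest.

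KO against WT at early passage asked whether the genotypes already differed in the young cultures. In the limma fit 0 of 36 members rose or fell, at a background of 0.0359% of all genes called in either direction, and 0 members had an unadjusted p under 0.05. The median difference over the members was 0.045, against 0.017 over all genes, with 23 positive and 13 negative. Cxcl10, a chemokine for activated T cells, had the largest difference among members above background on all early arrays. Its log2 signal was -4.18, -3.36 and -3.31 on WT early replicates 1 to 3 and -2.93, -3.01 and -3.02 on KO early. The KO arrays lay above all WT arrays, the lowest of which was replicate 1, and the difference was 0.63 ± 0.30 (SE, limma adjusted p = 0.74). Ifit1, which binds viral RNA, differed by 0.55 ± 0.36 and Cmpk2, a mitochondrial nucleotide kinase, by 0.51 ± 0.31, each with overlapping arrays and a limma adjusted p of 0.74. Without WT early replicate 1, Cxcl10 differed by 0.35 and Ifit1 by 0.27, and without WT early replicate 3 Cmpk2 differed by 0.26. Rsad2, an antiviral enzyme also called viperin, differed by 0.83 ± 0.49 but was well above background on only 4 of these 6 arrays. Non-overlapping arrays were seen for 1 member in each direction, Cxcl10 higher and Oasl2 lower, or 2.78% each, against 5.24% and 4.29% of all genes. Slides disagreed, with a median of 0.00040 on slide 1, -0.18 on slide 2 and 0.54 on slide 3.

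The genotypes were next compared in the older cultures, where 6 of 36 members passed. Of these 5 rose in KO, namely Usp18, Ifit1, Ifi44, Irf9 and Ifitm3, while Irgm1 fell. The background was 3.46% of all genes called higher and 4.37% called lower, against 13.9% and 2.78% of the members. Because the members were chosen with earlier results of these data known, these shares describe the set and are no independent test. The median difference of the members was 0.25, against -0.0081 for all genes, with 27 positive and 9 negative. An unadjusted p under 0.05 was seen for 12 members, a count without a known share over all genes. The arrays of the groups did not overlap for 13 members that were higher and 3 that were lower, or 36.1% and 8.33% of them, against 19% and 20.3% of all genes. In such cultures, fewer cells of a kind and less RNA per cell cannot be told apart.

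Among the regulators, Usp18 had the largest difference of all members. It is the protease that removes Isg15 from proteins and restrains the type I interferon receptor, and its gene lies on chromosome 6, as Itpr2 does. Its log2 signal was -3.91, -3.61 and -3.69 on WT late replicates 1 to 3 and -2.15, -1.88 and -2.37 on KO late. At early passage it was -3.78, -2.84 and -3.54 in WT and -3.50, -3.10 and -2.71 in KO. The KO late arrays therefore lay above all 9 others. The difference at late passage was 1.60 ± 0.26 (SE, limma adjusted p = 0.0086), a 3.04-fold rise with a 95% interval of 1.03 to 2.18 on the log2 scale.

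Irf9, the DNA-binding partner of Stat2, measured 0.46, 0.57 and 0.61 on WT late and 1.30, 1.35 and 1.16 on KO late arrays. WT early arrays, at 0.75, 1.17 and 0.69, and KO early arrays, at 0.67, 0.98 and 1.17, lay between these groups, with the highest early values reaching the lowest KO late one. The late difference was 0.72 ± 0.15 (1.65-fold, limma adjusted p = 0.022). Stat2 measured 0.12, 0.31 and 0.08 on WT late and 0.68, 0.83 and 0.62 on KO late arrays, without overlap, at 0.54 ± 0.17 (limma adjusted p = 0.074). Irf1 and Irf7, transcription factors of the interferon and interferon-making pathways, differed by 0.25 ± 0.17 and 0.31 ± 0.40. All 5 regulators had a positive difference, and 2 of them rose.

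The effectors, proteins that act on viral RNA, entry or replication, included 3 risers among 19 measured. Ifit1 gave -5.11, -4.34 and -4.32 on WT late and -2.94, -2.73 and -3.36 on KO late arrays. Its early values were -4.43, -3.09 and -4.08 in WT and -3.76, -3.24 and -2.95 in KO. KO late thus lay above WT late on every array but within reach of WT early replicate 2 and of KO early, and the late difference was 1.58 ± 0.36 (2.98-fold, limma adjusted p = 0.028). With normexp background correction the late difference was 0.75. That setting adds an offset of 50 to every signal, which by itself shrinks log2 differences of dim probes.

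Ifi44, an interferon-induced cytoplasmic protein, gave -4.24, -3.43 and -3.61 on WT late and -2.21, -2.15 and -2.33 on KO late arrays. Early arrays read -4.53, -3.58 and -4.08 in WT and -4.12, -3.59 and -3.26 in KO. Its KO late arrays stood above the 9 others, as for Usp18, and were close together, with a late difference of 1.53 ± 0.29 (2.89-fold, limma adjusted p = 0.015).

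Ifitm3, a membrane protein that blocks fusion of entering viruses, showed another arrangement. It gave 3.98, 4.32 and 4.09 on WT late arrays, below every other array. KO late gave 4.76, 4.70 and 4.78, within the range of WT early at 4.55, 4.68 and 5.04 and of KO early at 4.48, 4.75 and 4.91. The late difference was 0.62 ± 0.15 (1.54-fold, limma adjusted p = 0.036).

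Isg15, a ubiquitin-like protein attached to others during the response, gave -0.37, 0.67 and 0.45 on WT late and 1.53, 1.88 and 1.09 on KO late arrays. These did not overlap, and the difference of 1.25 ± 0.39 had a limma adjusted p of 0.075. Xaf1, a cell death regulator, differed by 0.99 ± 0.29 without overlap (limma adjusted p = 0.062). The 19 effectors ran from -0.58 for Oas1a, an oligoadenylate synthetase switched on by viral RNA, to 1.58 for Ifit1, and 14 were positive. Oasl2 and Rtp4, a receptor chaperone, were positive at 0.96 ± 0.38 and 0.78 ± 0.39 with overlapping arrays. Ifit2, a relative of Ifit1, differed by -0.28 ± 0.19. Its highest KO late array, at -3.081, lay just below its lowest WT late array, at -3.077. Ifit3 differed by 0.21 ± 0.31. Neither passed in limma, so the direction of Ifit2 and Ifit3 is not settled.

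**Figure D2:**
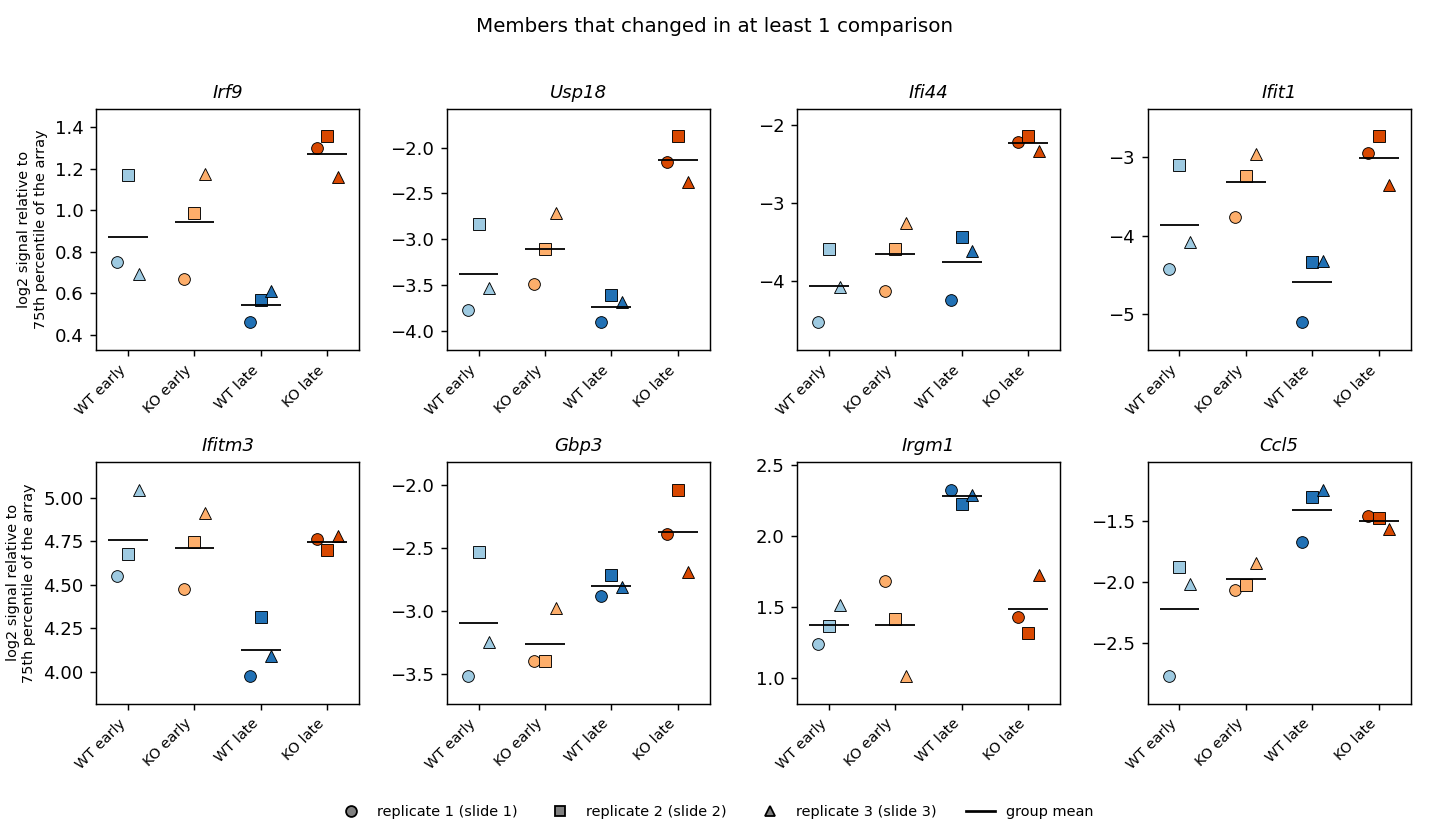
Log2 signal relative to the 75th percentile of each array for the 8 members that changed in at least 1 comparison, by group. Points are single arrays, with the shape giving the replicate and slide, and bars are group means. Usp18 and Ifi44 are highest on the KO late arrays, Ifitm3 is lowest and Irgm1 highest on the WT late arrays.

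The GTPases attack membranes around intracellular pathogens. Irgm1, which regulates other proteins of its family, gave 2.32, 2.22 and 2.29 on WT late and 1.43, 1.32 and 1.73 on KO late arrays. Early values were 1.24, 1.37 and 1.51 in WT and 1.68, 1.41 and 1.02 in KO. WT late was above all 9 other arrays, which overlapped each other, and KO late was lower by a log2 difference of -0.79 ± 0.17 (limma adjusted p = 0.022). A further Irgm1 probe gave -0.81. Gbp2 was lower in KO without overlap, at -0.48 ± 0.21, while Gbp3 at 0.43 ± 0.25 and Igtp at 0.44 ± 0.23 were higher without overlap, and none of these 3 passed in limma, with adjusted p of 0.18, 0.32 and 0.28.

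The 3 RNA sensors, which detect viral RNA in the cytosol, all had positive differences, from 0.11 for Dhx58 to 0.30 ± 0.12 for Ddx58, and 0 passed in limma. The chemokines differed by 0.20 ± 0.30 for Cxcl10 and -0.092 ± 0.21 for Ccl5. Genes of antigen presentation, the immunoproteasome subunits Psmb8 and Psmb9 and the peptide transporter Tap1, ran from -0.17 to 0.25, with overlapping arrays for all 3.

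**Figure D3:**
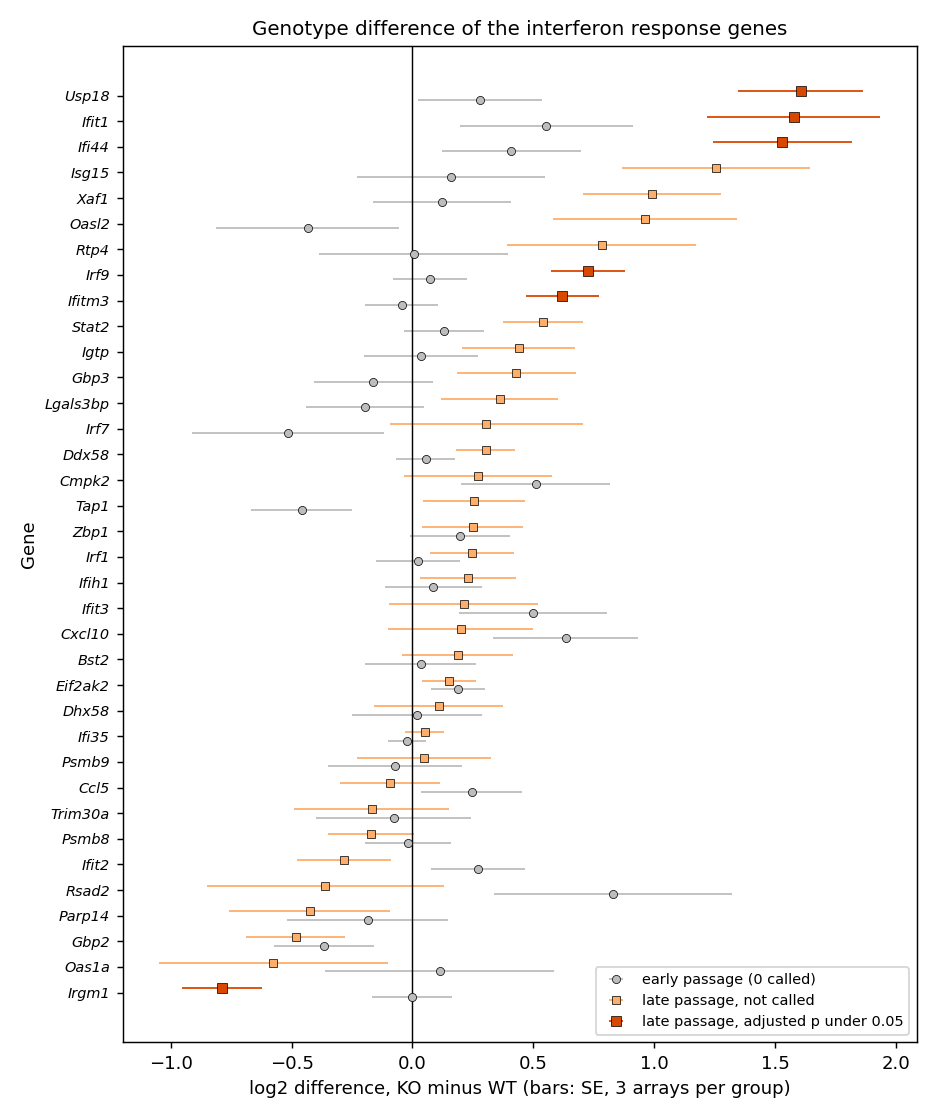
Log2 difference of KO minus WT for each of 36 members at early (circles) and late passage (squares), with SE bars from the limma fit, 3 arrays per group. At late passage the filled dark squares mark the 6 members that passed, from Irgm1 at -0.79 to Usp18 at 1.60, and early differences lie closer to 0 for these members.

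The late calls were sensitive to leaving out single arrays, which also left fewer arrays in the test. The differences then ran from 1.48 to 1.72 for Usp18, 1.32 to 1.75 for Ifit1 and 1.29 to 1.69 for Ifi44. They ran from 0.68 to 0.78 for Irf9, 0.54 to 0.71 for Ifitm3 and -0.91 to -0.70 for Irgm1. The count fell from 6 to 2 without WT late replicate 1 or without WT late replicate 3, where Usp18 and Ifi44 passed. It fell to 1, Usp18, without KO late replicate 1 or without KO late replicate 2, and to 3 without KO late replicate 3, and stayed at 6 without WT late replicate 2. Calls over all genes fell too, from 1527 to between 255 and 1153. With only KO late replicate 3 on the KO side, after both KO late arrays with Xist were left out, 0 members and 1 of all genes passed, the median was 0.041 with 20 positive, and Usp18 measured 1.37, Ifi44 1.43, Ifit1 1.23 and Irgm1 -0.55. On the slides the member median was 0.55 on slide 1, 0.24 on slide 2 and 0.039 on slide 3. For the 6 members that passed, the late arrays of the genotypes did not overlap. Their sign on each slide was thus fixed beforehand and is no separate support. Usp18 differed by 1.76, 1.74 and 1.32.

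Markers of macrophages, which also express interferon genes, moved with these groups. All 19 markers were measured. Their summed level, in multiples of the array's 75th percentile, ran from 103 to 169 on WT late and from 49 to 96.3 on KO late arrays, against 70.5 to 137 on WT early and 67.1 to 89.9 on KO early. In KO late 18 of 19 were lower than in WT late, with a median of -1.11, and the 2 that fell were Lyz2 at -1.32 ± 0.33 (limma adjusted p = 0.038) and Cd68 at -1.43 ± 0.38 (limma adjusted p = 0.046). Between the late groups the 5 members that rose moved opposite to these markers and Irgm1 moved the same way. Within KO late, the median deviation on replicates 1 to 3 was 0.17, 0.37 and -0.0022 for the 36 members. It was -0.25, 0.23 and -1.05 for the markers. The replicates of KO early also had the same order in both sets. In WT late replicate 1 was lowest in both, and in WT early the order differed. The part of the markers in any of these patterns was not tested.

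Markers of other cells moved in this comparison as well. Of the 10 fibroblast markers 4 passed, or 40% against 7.83% of all genes. The collagen gene Col3a1 rose by 0.96 ± 0.17 (limma adjusted p = 0.012) and the transcription factor gene Twist1 by 0.75 ± 0.14 (0.014), while Thy1, a surface protein, was lower at -1.18 ± 0.31 (0.048) and S100a4, a calcium-binding protein, at -1.35 ± 0.29 (0.024). The summed level of the 10 ran from 482 to 559 on WT late and from 517 to 577 on KO late arrays, which overlapped. The 3 measured plasmacytoid dendritic cell markers summed to 44.6 to 52 on WT late and 58.5 to 60.4 on KO late arrays. Such a sum weighs the brightest probes most and does not measure these cells. Mean log2 signals on WT late and KO late arrays were 5.17 and 5.30 for Siglech and 3.01 and 3.84 for Tcf4. Tcf4, a transcription factor gene also active in other cells, rose by 0.83 ± 0.097 (limma adjusted p = 0.0026), and Siglech differed by 0.13 ± 0.11. The third, Bst2, is itself induced by interferon and belongs to the 36 members. Krt18, the only epithelial marker measured, differed by -1.96 ± 0.59 (limma adjusted p = 0.070). The part of these markers in the late differences was not tested.

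**Figure D4:**
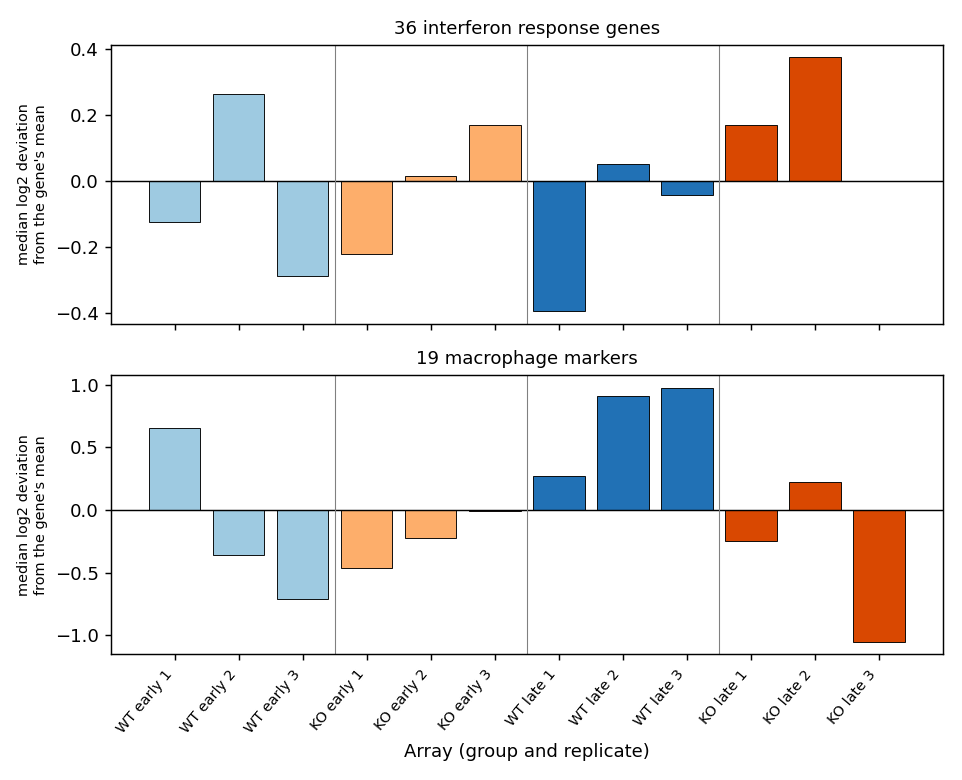
Median log2 deviation from the gene means, per array, of the 36 interferon response genes (top) and 19 macrophage markers (bottom). Bars are single arrays coloured by group. The interferon median is lowest on WT late replicate 1 and highest on KO late replicate 2, and the marker median is highest on WT late replicates 2 and 3.

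Promoters show which members carry the ISRE core in their first bases. Promoters of 300 bases, 250 before the start of the gene and 50 after it, were taken from RefSeq on GRCm38.p6 and matched 30 of the 36 members, Usp18 not among them. Those of Ifit1, Ifitm3 and Irgm1, the 3 members that changed at late passage and carry the core, are shown. Beside them are Isg15, which has 3 overlapping copies, and Ifi44, which rose and has no exact match. The Ifi44 promoter does hold a stretch close to the core. Capitals mark the ISRE core, searched as 2 GAAA units with any 2 bases between them, on either strand, and overlapping copies run together.
Ifit1 (chr19:34640639-34640938, plus strand): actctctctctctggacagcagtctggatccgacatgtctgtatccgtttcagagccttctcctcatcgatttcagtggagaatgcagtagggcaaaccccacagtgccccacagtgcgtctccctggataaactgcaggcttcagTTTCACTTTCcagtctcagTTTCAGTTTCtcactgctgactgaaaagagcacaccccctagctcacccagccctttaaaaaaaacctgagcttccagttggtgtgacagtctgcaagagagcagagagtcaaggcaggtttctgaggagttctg
Ifitm3 (chr7:141010695-141010994, minus strand): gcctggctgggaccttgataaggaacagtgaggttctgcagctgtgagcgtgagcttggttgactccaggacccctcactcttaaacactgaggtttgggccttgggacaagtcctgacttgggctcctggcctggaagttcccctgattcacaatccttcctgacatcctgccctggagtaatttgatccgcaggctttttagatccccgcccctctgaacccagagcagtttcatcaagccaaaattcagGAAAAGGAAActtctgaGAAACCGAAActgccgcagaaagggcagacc
Irgm1 (chr11:48871371-48871670, minus strand): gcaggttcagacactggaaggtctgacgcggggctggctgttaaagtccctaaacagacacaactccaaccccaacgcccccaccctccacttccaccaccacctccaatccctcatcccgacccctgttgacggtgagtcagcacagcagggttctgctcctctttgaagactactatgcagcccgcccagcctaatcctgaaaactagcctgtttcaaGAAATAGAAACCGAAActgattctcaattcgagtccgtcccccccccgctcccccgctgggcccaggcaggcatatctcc
Isg15 (chr4:156200769-156201068, minus strand): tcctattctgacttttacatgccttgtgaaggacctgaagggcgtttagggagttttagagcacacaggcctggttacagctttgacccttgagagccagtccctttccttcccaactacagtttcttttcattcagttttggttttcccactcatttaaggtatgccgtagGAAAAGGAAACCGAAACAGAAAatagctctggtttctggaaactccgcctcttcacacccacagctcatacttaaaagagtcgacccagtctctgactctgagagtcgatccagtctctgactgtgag
Ifi44 (chr3:151749861-151750160, minus strand): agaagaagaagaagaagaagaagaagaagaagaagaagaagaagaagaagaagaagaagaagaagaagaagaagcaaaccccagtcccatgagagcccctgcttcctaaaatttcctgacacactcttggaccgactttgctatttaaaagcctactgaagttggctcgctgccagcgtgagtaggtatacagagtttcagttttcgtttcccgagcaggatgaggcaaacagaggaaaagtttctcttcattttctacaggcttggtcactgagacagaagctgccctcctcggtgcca

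The core was found in 17 of 30 members, or 56.7%. Counted by gene in the same way, it was found for 3.99% of 27025 genes with a promoter of that length, and counted by promoter in 3.44% of all 32851. The GAS core, TTCNNNGAA, which reads the same way on both strands, was found in 9 of 30 members, or 30.0%, for 9.55% of those genes and in 8.3% of all promoters. Of the 5 members that rose in KO at late passage, 4 had a promoter entry and 2 of those held an ISRE core, and Irgm1, which fell, held 2 overlapping copies. In Ifit1 the copies began 104 and 85 bases before the start, and in Irgm1 30 and 24 bases before it, while those of Ifitm3 lay just after the start. Members with the core had a median late difference of 0.21, with 12 of 17 positive, and those without it 0.27, with 11 of 13 positive. The ranges overlapped, from -0.79 to 1.58 with the core and from -0.28 to 1.53 without it. A match is a stretch of letters, not a shown binding site. Only exact matches were counted, so promoters with a near match, such as that of Ifi44, stand among those without the core.

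Late against early passage in WT asked how the genes changed as WT cultures aged. Irgm1 and Ccl5 rose and Ifitm3 fell, 2 and 1 of 36, or 5.56% and 2.78%, against a background of 6.22% of all genes higher and 4.36% lower. The median was -0.025, against -0.0043 for all genes, with 18 members on each side, and 11 had an unadjusted p under 0.05. This comparison shares the WT late arrays with KO against WT at late passage, so their values are not independent.

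Irgm1, whose arrays are given above, was higher at late passage by 0.91 ± 0.17 (1.87-fold, limma adjusted p = 0.010), and Ifitm3 was lower by a log2 difference of -0.63 ± 0.15 (limma adjusted p = 0.029). Ccl5, which attracts T cells and monocytes, gave -2.77, -1.87 and -2.02 on WT early and -1.67, -1.30 and -1.24 on WT late arrays. In KO it gave -2.06, -2.02 and -1.84 early and -1.46, -1.47 and -1.56 late. Late arrays were above early ones in both genotypes, and in WT the rise was 0.82 ± 0.21 (1.76-fold, limma adjusted p = 0.035). Without WT early replicate 1, the lowest array, it was 0.54 (limma adjusted p = 0.034). Cxcl10 differed by 0.81 ± 0.30, also without overlap (limma adjusted p = 0.11). Oasl2 and Isg15 had the largest negative differences, -0.85 ± 0.38 and -0.83 ± 0.39, with overlapping arrays and limma adjusted p of 0.17 and 0.19. They were -0.41 and -0.52 without WT late replicate 1, and Isg15 was -0.46 without WT early replicate 2. Rsad2 differed by 1.37 ± 0.49, with 4 of 6 arrays above background.

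By role, all 5 regulators were lower at late passage in WT, from -0.47 for Stat2 to -0.32 for Irf7, and 0 of them passed. Effectors ran from -0.85 to 1.37 with 10 of 19 positive. GTPases were positive for 3 of 4, RNA sensors for 1 of 3 and antigen presentation genes for 2 of 3, with Tap1 at -0.56 ± 0.21 below its early arrays throughout. Non-overlapping arrays were seen for 3 members higher and 6 lower, 8.33% and 16.7%, against 13.9% and 13.8% of all genes. Irgm1 passed without each of the 6 WT arrays. Ccl5 lost its call without WT late replicate 2 or 3 (limma adjusted p = 0.094 for each), and Ifitm3 without WT early replicate 2 (0.055) or 3 (0.067) or WT late replicate 1 (0.089) or 3 (0.068). Macrophage markers were higher in WT late, 17 of 19 with a median of 0.85, and Lyz2 rose by 1.33 ± 0.33 (limma adjusted p = 0.031); their part in the change of Irgm1 and Ccl5 was not tested.

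Late against early passage in KO asked the same of the KO cultures. Xist was above background on KO late replicates 1 and 2 but on no KO early array. Embryo and sex therefore cannot be told apart from passage in this comparison. Ifi44, Usp18 and Gbp3 rose and 0 members fell, 8.33% higher against a background of 9.95% of all genes higher and 9% lower. The median was 0.19, against -0.047 for all genes, with 28 positive and 8 negative, and 4 had an unadjusted p under 0.05. Ifi44 rose by 1.43 ± 0.29 (2.69-fold, limma adjusted p = 0.0087) and Usp18 by 0.97 ± 0.26 (1.96-fold, limma adjusted p = 0.026), with arrays as given above and no overlap. With normexp background correction, whose added offset shrinks differences of dim probes, Ifi44 differed by 0.84, Usp18 by 0.58 and Gbp3 by 0.52.

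Gbp3, a guanylate-binding protein, gave -3.40, -3.40 and -2.98 on KO early and -2.39, -2.04 and -2.69 on KO late arrays, against -3.52, -2.53 and -3.25 on WT early and -2.88, -2.71 and -2.81 on WT late. Each KO late array lay above all KO early ones, with replicate 3 of both groups nearest to each other, and the rise was 0.89 ± 0.25 (1.85-fold, limma adjusted p = 0.031). By role, GTPases were positive for 4 of 4, RNA sensors and antigen presentation genes for 3 of 3 each, both chemokines were positive and effectors were so for 13 of 19. Regulators were split, with Irf9 at 0.33 ± 0.15 and Irf7 at 0.50 ± 0.40 positive and Irf1 at -0.13 ± 0.17 and Stat2 at -0.062 ± 0.17 negative. Non-overlapping arrays were seen for 7 members higher and 2 lower, 19.4% and 5.56%, against 22.6% and 29.3% of all genes.

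Ifi44 passed without each of the 6 KO arrays. Usp18 and Gbp3 lost their calls without KO early replicate 1 (limma adjusted p = 0.10 and 0.11), KO early replicate 2 (0.074 and 0.10), KO late replicate 1 (0.076 and 0.087) or KO late replicate 2 (0.098 and 0.12). Without both KO late arrays with Xist the count was 0, at 1.32 for Ifi44, 0.73 for Usp18 and 0.57 for Gbp3. With Xist above background as a covariate Usp18 differed by 1.08 and Gbp3 by 0.95 (limma adjusted p = 0.051 and 0.071). The slides differed in level, with member medians of 0.45, 0.44 and -0.23. The 3 that rose had no overlap between the KO groups, so a positive sign on each slide was fixed beforehand. On slide 3 the differences were 0.92, 0.34 and 0.29 for Ifi44, Usp18 and Gbp3.

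Whether the change with passage differed between genotypes was tested as the difference of the changes, KO minus WT. In limma 0 of 36 members passed, at a background of 0.0871% of all genes, and 7 had an unadjusted p under 0.05. The median was 0.15, against -0.025 for all genes, with 23 positive. The largest differences among members above background on all 12 arrays were 1.39 ± 0.54 for Oasl2 (limma adjusted p = 0.30), 1.33 ± 0.36 for Usp18 (0.19) and 1.12 ± 0.41 for Ifi44 (0.28). All 5 regulators were positive, from 0.22 for Irf1 to 1.33 for Usp18, and Irgm1 had -0.79 ± 0.23 (limma adjusted p = 0.21). Slide medians were 0.82, 0.48 and -0.35. A rise that passed in KO and not in WT, as for Ifi44, Usp18 and Gbp3, was therefore not shown to differ between the genotypes.

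**Figure D5:**
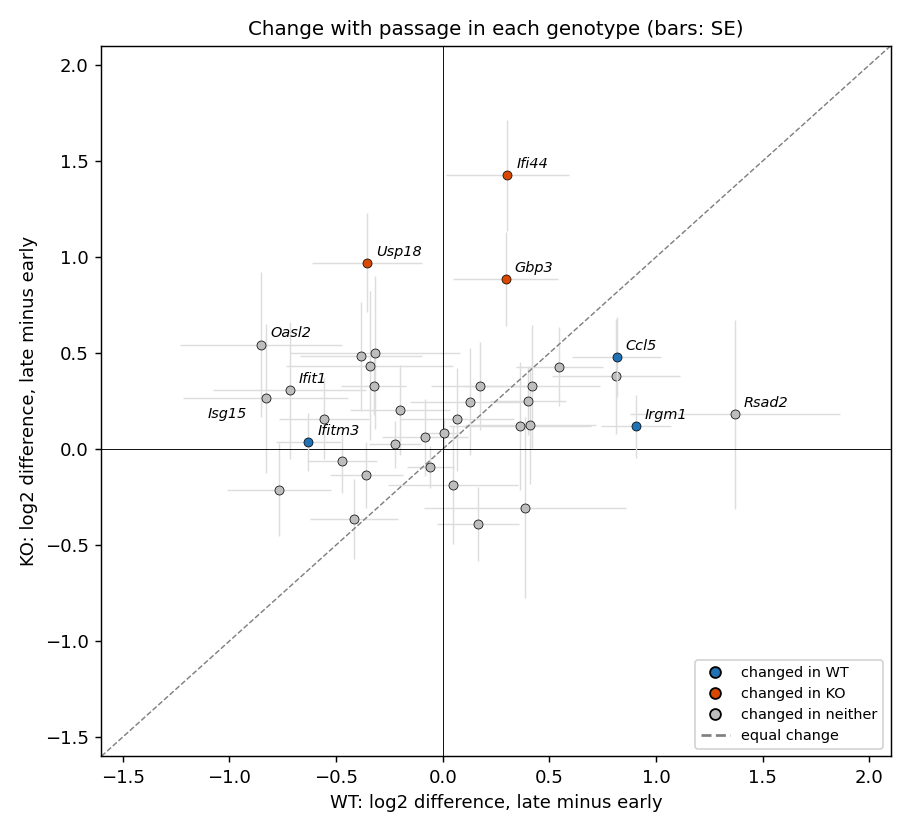
Log2 difference of late minus early passage for each of 36 members in WT (horizontal) and KO (vertical), with SE bars; the dashed line marks equal change. Usp18 and Ifi44 lie farthest above the line among the members that changed, and Irgm1 lies below it.

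The rest of the pathway was read from a wider list of 122 genes, of which 101 were tested. Among the ligands, Ifnb1, Ifna4, Ifnk, Ifng and Ifne had probes that were not well above background on all 3 arrays of any group and gave no value. The interferon genes Ifna2, Ifna5 and Ifnl3 were measured, on 11, 12 and 12 arrays above background. Interferon alpha genes are close copies of each other, so it is uncertain which copies the Ifna2 and Ifna5 probes read. Their KO minus WT differences at late passage were -0.76 ± 0.43, -0.35 ± 0.23 and -0.27 ± 0.16 (limma adjusted p = 0.31, 0.40 and 0.34), with overlapping arrays for all 3. In KO against WT at early passage 0 of 101 passed in limma, and 3 had an unadjusted p under 0.05. At late passage 5 rose and 2 fell, 6.93% against 7.83% of all genes.

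Of the 10 tested signalling genes of the wider list, 3 rose in KO at late passage. That was 30%, against 3.46% of all genes called higher. Other parts of the list differed from this. Of 21 sensing genes 0 passed, with a median of -0.087. Their arrays did not overlap for 38.1% lower and 19% higher, against 20.3% and 19% of all genes. Of 59 further interferon-induced genes 2 rose, or 3.39%. The 3 signalling genes that rose are among 5 inhibitors of cytokine signalling in their part of the list. Of these 5, Ptpn2 and Ptpn6 were named after their values were seen. Socs1, which blocks Jak kinases, gave -0.02, -0.38 and -0.65 on WT late and 0.92, 1.10 and 0.68 on KO late arrays, a rise of 1.25 ± 0.21 (2.38-fold, limma adjusted p = 0.0096). Socs3, a relative induced by cytokines of the interleukin 6 family, rose by 1.16 ± 0.29 (limma adjusted p = 0.040), and Ptpn2, a phosphatase of Jak and Stat proteins, by 0.48 ± 0.11 (limma adjusted p = 0.026). Pias1, which inhibits Stat proteins, differed by 0.020 ± 0.16, and Ptpn6, a phosphatase of blood cells, macrophages included, by -1.24 ± 0.41 (limma adjusted p = 0.090) with overlapping arrays. Ifitm1, a relative of Ifitm3, rose by 1.48 ± 0.33 (limma adjusted p = 0.026) and Ifi27 by 0.68 ± 0.13 (limma adjusted p = 0.014). Tnf, an inflammatory cytokine that macrophages also make, fell by 1.28 ± 0.30 on the log2 scale (limma adjusted p = 0.031), and Ifngr2, a chain of the interferon gamma receptor, by 0.53 ± 0.11 (limma adjusted p = 0.020).

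These calls were sensitive to leaving out single arrays too. The differences then ran from 1.10 to 1.42 for Socs1, 1.08 to 1.23 for Socs3, 0.42 to 0.52 for Ptpn2 and 1.13 to 1.70 for Ifitm1. They ran from 0.61 to 0.75 for Ifi27, -1.53 to -1.03 for Tnf and -0.59 to -0.47 for Ifngr2. Socs1 passed without each of the 6 late arrays, and Socs3 lost its call without any 1 of them (limma adjusted p from 0.075 to 0.13). Ifitm1 lost its call without WT late replicate 3 or any KO late array, and Ptpn2 without the same 4 arrays, one at a time. Ifngr2 lost its call without each late array but WT late replicate 2, and Ifi27 without KO late replicate 1 or 2. Tnf lost its call without WT late replicate 2 or 3 or KO late replicate 1 or 3 and with the replicate number as a block (limma adjusted p = 0.052), and measured -0.48 with normexp background correction. Without both KO late arrays with Xist none of these 7 passed in limma.

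The other core genes had small late differences that did not pass. They were 0.048 ± 0.14 for Ifnar1, 0.13 ± 0.082 for Ifnar2, -0.16 ± 0.13 for Ifngr1, 0.17 ± 0.16 for Jak1, -0.077 ± 0.13 for Tyk2 and -0.038 ± 0.070 for Irf3, which switches on interferon genes after sensing. The signs of Ifnar1, Tyk2 and Irf3 turned in at least 1 alternative.

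With passage, 8 of the 101 rose and 3 fell in WT, 10.9% against 10.6% of all genes, and 12 rose and 4 fell in KO, 15.8% against 18.9%. Casp4, an inflammatory caspase, rose by 1.69 ± 0.27 in WT (limma adjusted p = 0.0061) and 1.99 ± 0.27 in KO (0.0015). Il6, a cytokine of inflammation, rose by 1.17 ± 0.27 in WT (limma adjusted p = 0.024) and 1.86 ± 0.27 in KO (0.0022). Nlrc5, an activator of class I antigen presentation genes, rose by 0.99 ± 0.26 in WT (limma adjusted p = 0.039) and 1.70 ± 0.26 in KO (0.0028). Tnf rose in WT by 1.29 ± 0.30 (limma adjusted p = 0.026) and Isg20, an exonuclease, in KO by 1.04 ± 0.28 (limma adjusted p = 0.030). Casp4 in both genotypes and Il6 and Nlrc5 in KO passed without each array of the comparison. In WT, Il6 lost its call without WT early replicate 2 or WT late replicate 1 or 3, Nlrc5 without WT early replicate 3 or any WT late array, and Tnf without WT early replicate 2 or 3 or WT late replicate 2 or 3. Isg20 lost its call in KO without each array but KO early replicate 3. Without both KO late arrays with Xist none of the rises of Casp4, Il6, Nlrc5 and Isg20 in KO passed (limma adjusted p = 0.079, 0.082, 0.091 and 0.22). Without WT early replicate 3 the rise of Nlrc5 in WT was 0.66. With normexp background correction it was 0.43 in WT and 1.08 in KO, and Tnf in WT was 0.38 (limma adjusted p = 0.072). For the difference of the changes 0 of 101 passed in limma, with 19 at an unadjusted p under 0.05.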

How the data were processed

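Values came from the scanner files of 12 arrays. Per the file headers, the deposited intensity of each spot had its background subtracted and array trends removed with Feature Extraction 11.5.1.1 (the submitters' processing notes give 10.7.3.1), with no scaling between arrays. The authors' deposited table of log2 values for 22887 probes was used as an alternative; its values were centred on each probe's mean, and the filter behind it was not stated.

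Outlier spots were left out, spots of a probe averaged as log2 and the array's 75th percentile subtracted. Probes well above background on every array of 1 group or more were kept, 24466 of 39429, less 107 with an outlier spot, and the brightest kept probe stood for a gene. Symbols came from RefSeq accessions on GRCm38.p6. limma 3.58.1 in R 4.3.3 fitted 4 group means to 12 arrays (8 residual and 2.22 prior degrees of freedom), with 5 contrasts and p-values adjusted over 19507 genes by the Benjamini-Hochberg method. The fit was also run on simulated data with independent noise for each gene and array. That run did not include the joint shifts of members on single arrays seen here. Members and lists were chosen with earlier results of these data known.

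Members described array by array are those that passed in at least 1 contrast; beside them the 3 with the largest difference among those above background on all arrays compared, and, of the wider list, up to 4 that passed per contrast and 7 core genes, are named (a further gene of the rule is not reported here); others were added after their values were seen. Alternatives changed the scaling, background, filter, probe choice, arrays and blocks. Same-numbered samples share a slide, per the file headers; their deviations correlated between -0.092 and 0.28. Separate animals stand behind the genotypes per the series' design text, but the labels do not tie early and late cultures to animals. In KO, Xist was above background on late replicates 1 and 2 but on no early array. Embryo and sex cannot be told apart from passage there. The number of arrays limits precision.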

Additional observations from a re-analysis of the deposited data

How the results depend on the processing

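The number of members that passed was 0 at early passage and 0 for the difference of the changes in every alternative. At late passage it was 6, and 6 to 8 under quantile scaling, normexp background, the authors' deposited table (34 members), a filter on all 12 arrays, the mean of a gene's probes, Xist as a covariate, the slide as a random block and a fit of only the 2 groups. It was 2 with no filter on dim probes and 1 to 6 without each replicate, and, in an alternative chosen after seeing the data, 0 without both KO late arrays with Xist. In WT with passage it was 3, and 5 with normexp background, 1 with no filter, 1 in the fit of only 2 groups and 2 to 3 without each replicate. In KO with passage it was 3, and 1 with no filter, 5 in the fit of only 2 groups, 0 without both KO late arrays with Xist and 1 to 3 without each replicate. With the replicate number, which is the slide, as a block, the counts were 0, 8, 4, 3 and 0 for early genotype, late genotype, WT passage, KO passage and the difference of the changes; the late block added Isg15 and Xaf1, that in WT Lgals3bp, Tnf was lost at late passage, and no other named call changed. The 20 results for named members, each under 16 to 22 overlapping alternatives, gave 347 values. All 347 kept their direction and 57 lost their call. These members were named for a call or a large difference, so a kept direction was likely beforehand and is no separate support. Of 370 values of named pathway genes 70 lost their call and 5 reversed, the latter all in KO against WT at late passage. Without both KO late arrays with Xist, Ifnar1 was -0.037 and Irf3 0.028. Ifnar1 was -0.0051 with Xist as a covariate and -0.015 without WT late replicate 2, where Tyk2 was 0.050; over the arrays left out in turn Ifnar1 ran from -0.015 to 0.090 and Tyk2 from -0.15 to 0.050. Normexp was run with an offset of 50, so smaller differences of dim probes under it do not show an effect of background alone. It used median signals with the background capped at its 99th percentile, chosen after seeing the data, and the slide as a random block was added then too. Where a replicate left 2 arrays in a group, fewer arrays entered the test, and a lone array was taken to have the spread of the other groups.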

Other observations

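Besides the brightest probe, 6 members had a further kept probe, and for 3 of them it disagreed in sign with the main probe in at least 1 comparison. The further Isg15 probe gave a KO minus WT difference of 1.41 at late passage, beside 1.25 for the main probe. For Cmpk2, however, the further probe gave -0.11 where the main one gave 0.27, and -0.069 where it gave 0.048 with passage in WT. For Oas1a the probes gave -0.089 and 0.11 for KO against WT at early passage, and for Ddx58 -0.094 and 0.025 with passage in KO. None of these values passed for the main probe, so the direction of Cmpk2, Oas1a and Ddx58 in those comparisons is not settled.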
